A study of Homo sapiens with 4 samples.

Results

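The genes of gluconeogenesis and hepatic glucose output were examined in RNA-seq libraries of wild-type and TXNDC9 knockout cells. They were 10 genes, PCK1, PCK2, G6PC, FBP1, PC, SLC2A2, SLC37A4, PPARGC1A, FOXO1 and G6PC3, matched by symbol among the 57979 genes of the expression table, and each symbol occurred once. TXNDC9 encodes a thioredoxin domain containing protein. All 4 libraries carried the label HepG2, a human liver tumour line, cultured in DMEM with fetal bovine serum; 2 were labelled wild type and 2 TXNDC9 knockout (TXNDC9-KO). The knockout was made with CRISPR-Cas9, and the study's methods describe lentiviral delivery of a guide against the first exon of TXNDC9. For its protein blot the study sorted infected cells, with vector alone as the control, but whether the sequenced cells were that sorted pool or 1 clone, which guide they received and whether the wild-type cells carried the vector are not given for these libraries. The study describes its RNA-seq error bars as coming from more independent experiments than the 2 libraries per group, and the labels name no separate cultures, so p-values measure only the spread between these libraries, which may be technical. Polyadenylated RNA was sequenced, and levels are FPKM, fragments per kilobase of transcript and library size. Levels are compared between genes as a description only, and differences between the groups moved with transcript length, as given below. The depth of the libraries is unknown.

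Gluconeogenesis makes glucose from lactate, pyruvate, glycerol and amino acids, in liver above all and also in kidney. It runs most of glycolysis backwards and bypasses the irreversible steps with its own enzymes. Pyruvate carboxylase (PC) makes oxaloacetate in mitochondria, PEP carboxykinase (cytosolic PCK1, mitochondrial PCK2) turns it into phosphoenolpyruvate, fructose-1,6-bisphosphatase (FBP1) removes a phosphate, and glucose-6-phosphatase (G6PC) releases free glucose inside the endoplasmic reticulum. SLC37A4 carries glucose-6-phosphate to that enzyme and SLC2A2 (GLUT2) lets glucose leave the hepatocyte. FOXO1 and its coactivator PPARGC1A (PGC-1alpha) raise transcription of PCK1 and G6PC in fasting, and insulin opposes them. G6PC3 is the glucose-6-phosphatase of most other tissues and is known for its role in neutrophils.

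The promoters of G6PC and SLC2A2, both listed at 0 in every library, are shown beside those of G6PC3 and PC, the members with the highest levels. The sequences are from RefSeq on GRCh38.p14, which held a window for 9 of the 10 members. They cover the 250 bases before the start, on the gene's own strand, 5′ to 3′. G6PC3 and PC had 3 windows each, and the window nearest the start of the canonical transcript is shown. Their other windows are not described. Capitals mark matches to CACGTG (the E-box), TGACG (part of the cAMP response element) or CCAAT, or to their reverse complements. The windows are chr17:42900549-42900798 (plus strand) for G6PC, chr3:171026721-171026970 (minus strand) for SLC2A2, chr17:44070485-44070734 (plus strand) for G6PC3 and chr11:66958384-66958633 (minus strand) for PC.
G6PC: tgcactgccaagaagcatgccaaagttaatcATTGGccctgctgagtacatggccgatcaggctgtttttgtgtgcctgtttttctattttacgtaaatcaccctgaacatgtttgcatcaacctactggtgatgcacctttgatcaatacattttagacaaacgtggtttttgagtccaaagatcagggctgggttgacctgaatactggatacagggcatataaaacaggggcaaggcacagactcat
SLC2A2: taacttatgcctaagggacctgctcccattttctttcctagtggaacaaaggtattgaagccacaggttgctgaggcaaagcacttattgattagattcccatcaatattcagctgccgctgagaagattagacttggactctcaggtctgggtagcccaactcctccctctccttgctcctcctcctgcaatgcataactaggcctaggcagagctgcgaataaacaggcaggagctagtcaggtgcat
G6PC3: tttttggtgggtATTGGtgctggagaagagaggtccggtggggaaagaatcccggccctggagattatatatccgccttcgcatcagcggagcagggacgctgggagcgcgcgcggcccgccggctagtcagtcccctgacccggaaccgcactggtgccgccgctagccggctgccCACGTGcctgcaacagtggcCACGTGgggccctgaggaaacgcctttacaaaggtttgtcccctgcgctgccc
PC: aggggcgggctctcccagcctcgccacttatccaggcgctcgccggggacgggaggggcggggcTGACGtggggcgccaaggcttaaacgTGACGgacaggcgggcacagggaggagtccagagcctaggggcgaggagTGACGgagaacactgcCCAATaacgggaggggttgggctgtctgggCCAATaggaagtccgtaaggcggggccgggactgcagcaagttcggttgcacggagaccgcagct

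The G6PC window held 3 CpG dinucleotides and the SLC2A2 window 2, against 21 in each of the G6PC3 and PC windows. Over the 35116 windows of the same length the quartiles were 3, 11 and 23. Among the windows not shown, FBP1, which stayed below 1 FPKM, had 26 CpG and PPARGC1A, which was tested, had 4. PCK2 had 17, SLC37A4 21 and FOXO1 27. The PPARGC1A window lay 8946 bases from the start of its canonical transcript. A relation of CpG count to level was not tested. The G6PC3 window held 2 copies of CACGTG, from 73 to 68 and from 53 to 48 bases before the start, a motif found on either strand in 6.34% of windows. The PC window held 3 copies of TGACG, the nearest from 111 to 107 bases before the start, and 21.22% of windows held at least 1. CCAAT, found in 32.01% of windows, occurred in the G6PC, G6PC3 and PC windows. The full cAMP response element TGACGTCA, which contains TGACG, was found in 1.65% of windows, and GTAAACA, a forkhead motif, in 2.98%. Neither exact string had a match in the 4 windows. Other forms of these sites were not searched, so the windows may hold them. These matches describe the sequence, and no binding was measured.

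The markers of liver tumour cells went against the label. All 10 hepatoma markers, ALB, AFP, APOA1, APOB, TTR, TF, SERPINA1, FGB, FGA and AHSG, were below 0.5 FPKM in every library. Albumin, the main plasma protein made by liver, was at 0.0260 FPKM in WT replicate 1 and listed at 0 in the other 3 libraries. Alpha-fetoprotein (AFP), a fetal liver protein, was at 0.262 and 0.449 FPKM in the WT libraries, 0 and 0.0996 in the TXNDC9-KO libraries. The 10 markers summed to 0.411 and 0.733 FPKM in the WT libraries and to 0.0236 and 0.153 in the TXNDC9-KO libraries. Of the markers, 8 had a value above 0 in at least 1 library, and APOA1 and AHSG were listed at 0 throughout.

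Other cell types' markers were not uniformly absent. The 7 fibroblast markers summed to 54.3 and 49.7 FPKM in WT and 38.5 and 34.6 in TXNDC9-KO, mostly from the collagens COL1A1 and COL3A1, and 4 of them had a mean above 1 in a group. PDGFRB of that list went the other way, at 1.08 and 0.735 in WT and 3.004 and 2.62 in TXNDC9-KO. Its log2 rise was 1.55 (limma adjusted p = 0.00392). Of the same list, COL1A2 was listed at 0 in all 4 libraries, and LUM and THY1 were below 1 FPKM in every library. The 4 endothelial markers summed to 0.803 and 1.22 in WT and 4.41 and 3.42 in TXNDC9-KO, nearly all of it from CDH5, which rose by 1.92 on the log2 scale (limma adjusted p = 0.00195), with KDR listed at 0. The 6 immune markers summed to between 0.759 and 1.14, and the 5 kidney tubule markers to between 0.0616 and 0.327. The samples are therefore called libraries labelled HepG2, and neither what the cells were nor the part of these markers in the differences given here was tested.

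A listed 0 was read with care. The 13 protein-coding genes of the mitochondrial genome, used by nearly every cell, were all listed at 0, whereas 0 of 73 ribosomal protein genes were; both sets were chosen after their values were seen. A 0 in the table is therefore given as listed and not as absence.

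TXNDC9 itself was at 35.1 and 37.3 FPKM in WT and 21.9 and 27.6 in TXNDC9-KO. The log2 fold change, TXNDC9-KO over WT, was -0.55 (SE 0.139, limma adjusted p = 0.0145), which did not pass, and it was -0.70 with libraries centred on their medians, -0.44 after a correction for transcript length and GC content, and 0.12 once each library was rescaled to the same total (TPM), which moved all genes up together. This mRNA level measures neither the edit nor the protein. A protein-coding gene on the opposite strand overlaps exons of TXNDC9, and its reads cannot be told apart here. EIF5B, also on the opposite strand, overlaps the TXNDC9 locus but not its exons. Summed FPKM was 805815.9 and 971102.2 in WT and 535973.4 and 568279.5 in TXNDC9-KO, so the scaling of the libraries bears on every difference between them. In bulk RNA, fewer cells of a type and less RNA per cell cannot be told apart.

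The members split into genes that were measured and genes at or near 0. The liver-restricted members G6PC and SLC2A2 were listed at 0 in all 4 libraries, and PCK1 and FBP1 stayed below 1 FPKM. The other 6 had a mean above 1 FPKM and could be tested. The highest was G6PC3, at 203 ± 22.2 FPKM in WT (SD, n = 2), followed by PC at 47.2 ± 3.81, SLC37A4 at 25.8 ± 0.749, PCK2 at 17.2 ± 1.48, FOXO1 at 1.98 ± 0.111 and PPARGC1A at 1.37 ± 0.214. Replicates of neighbouring genes in that order did not overlap. The order in TXNDC9-KO was the same except that PPARGC1A stood above FOXO1. PCK1 and FBP1 came next, and their WT values overlapped.

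**Figure D1:**
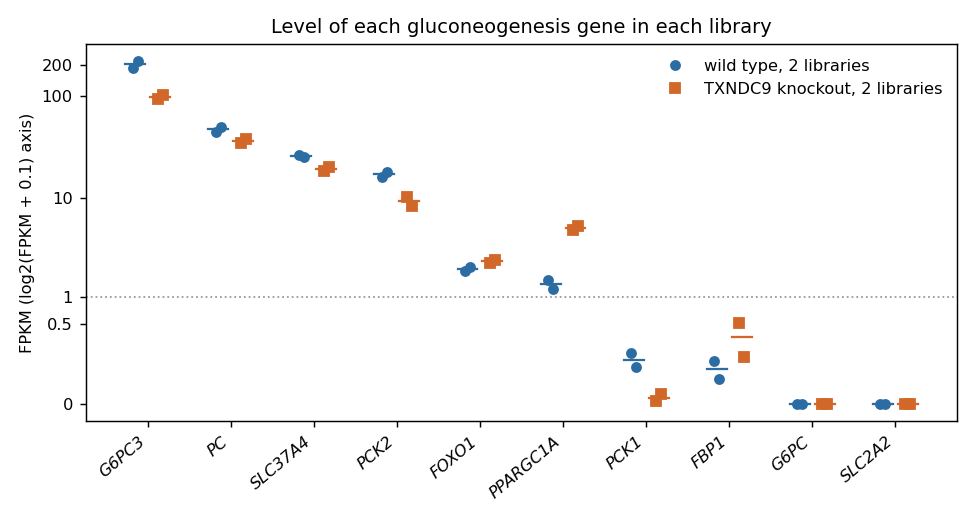
FPKM of the 10 genes on a log2(FPKM + 0.1) axis, with a circle for each WT library, a square for each TXNDC9-KO library, a line at each group mean and a dotted line at 1 FPKM. G6PC3 is highest in both groups, the 4 genes at the right lie below the dotted line, and PPARGC1A is the gene whose TXNDC9-KO values stand farthest above its WT values.

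The enzymes that carry out the bypass steps were examined first. Genes were compared with limma on log2(FPKM + 0.1) and called at an adjusted p under 0.01 with a fold change of at least 2. Among the 13246 genes tested, 15.3% were called lower and 14.2% higher in TXNDC9-KO, and 45.9% had both TXNDC9-KO values below both WT values while 40.1% had both above. Of the 6 members tested, 1 was called lower and 1 higher, 4 had lower TXNDC9-KO values without overlap and 2 higher. Their median log2 fold change was -0.40 against -0.09 over all genes tested. With shares of that size in the background, the counts of the members say nothing particular about them. With 2 libraries against 2, an exact permutation test of a single gene cannot go below p = 0.33, so the calls depend on the variance that limma estimates from many genes together.

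PC (chr11:66848417-66958386, minus strand), which supplies oxaloacetate, was at 44.5 and 49.9 FPKM in WT and 34.6 and 38.2 in TXNDC9-KO. The groups did not overlap, and the difference on the log2 scale was -0.38 (SE 0.114, limma adjusted p = 0.0290), which did not pass. Rescaled to TPM it was 0.30. Exons of PC overlap LRFN4 on the opposite strand, whose own log2 difference was -0.50.

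PCK2 (chr14:24094053-24110598, plus strand), the mitochondrial PEP carboxykinase, was at 16.2 and 18.2 FPKM in WT and 10.4 and 8.46 in TXNDC9-KO. Both TXNDC9-KO libraries lay below both WT libraries. The log2 difference of -0.87 (SE 0.140, limma adjusted p = 0.00287) passed the p threshold but not the fold threshold, at 0.548 of the WT level. It passed both when the libraries were centred on their medians (-1.01) and was -0.19 as TPM.

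PCK1 (chr20:57561080-57568121, plus strand), the cytosolic enzyme and the classical fasting-induced form, was at 0.213 and 0.130 FPKM in WT and 0.00661 and 0.0254 in TXNDC9-KO. Its TXNDC9-KO values were below its WT values, but all 4 were far below the 1 FPKM needed for the test. FBP1 (chr9:94603133-94640249, minus strand) was at 0.166 and 0.0762 FPKM in WT and 0.519 and 0.187 in TXNDC9-KO. With the filter on low values removed, neither passed (limma adjusted p = 0.0416 for PCK1 and 0.262 for FBP1). The lncRNA PCAT7 overlaps exons of FBP1.

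The glucose-6-phosphatase system gave the call in the lower direction. G6PC3 (chr17:44070620-44082151, plus strand) was at 187 and 218 FPKM in WT and 93.7 and 102.7 in TXNDC9-KO. The groups were well apart, with the higher TXNDC9-KO library at a level below the lower WT library. G6PC3 fell by 1.04 on the log2 scale (SE 0.131, limma adjusted p = 0.00127), to 0.486 of its WT level, a value just past the fold threshold. As TPM the log2 difference was -0.36 and the call was lost. It was also lost without WT replicate 2, at -0.93. Without either TXNDC9-KO library, where the calls of all genes were lost, G6PC3 was at -0.98 and -1.11. HDAC5 on the opposite strand shares exonic bases with G6PC3, and its own log2 difference was 0.34.

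G6PC (chr17:42900797-42914438, plus strand), the enzyme of liver and kidney, was listed at 0 in each library, so no fold change is given. SLC37A4 (chr11:119023751-119030906, minus strand), which serves both phosphatases, was at 26.3 and 25.3 FPKM in WT and 18.4 and 20.3 in TXNDC9-KO. The groups did not overlap. Its log2 difference was -0.42 (SE 0.105, limma adjusted p = 0.0151), which did not pass, and as TPM it was 0.26. TRAPPC4 overlaps its exons on the opposite strand and had a log2 difference of -0.95. SLC2A2 (chr3:170996347-171026743, minus strand), the export transporter, was listed at 0 throughout. The use of strand in the authors' counting is not given in the sources used here, so reads of overlapping genes cannot be told apart.

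The transcriptional regulators gave the call in the higher direction. PPARGC1A (chr4:23755041-23904089, minus strand) was at 1.52 and 1.22 FPKM in WT and 4.85 and 5.28 in TXNDC9-KO. Both TXNDC9-KO libraries were above both WT libraries by more than the spread within either group. PPARGC1A rose by 1.82 on the log2 scale (SE 0.189, limma adjusted p = 0.000790), which is 3.54 times on the FPKM + 0.1 scale. The call held as TPM (2.50) and with centred libraries (1.68), and it was lost after the correction for length and GC content described next (0.95). It was lost without TXNDC9-KO replicate 1 (1.88) and without TXNDC9-KO replicate 2 (1.76), where the smallest limma adjusted p over all genes tested was 0.0160 and 0.0232.

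FOXO1 (chr13:40555667-40666641, minus strand) was at 1.90 and 2.06 FPKM in WT and 2.29 and 2.46 in TXNDC9-KO. The groups did not overlap, but the log2 difference of 0.25 (SE 0.188, limma adjusted p = 0.274) did not pass. A lncRNA on the same strand overlaps its exons. The targets that FOXO1 and PPARGC1A are best known for in fasted liver, PCK1 and G6PC, were the members near or at 0.

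Transcript length moved with the differences. Over the 13112 genes with a known length, log2 fold change and length of the canonical transcript had a Spearman rho of 0.49, a description across genes that share the same 4 libraries. G6PC3, at 1573 nt, lay in a bin of 660 genes whose median log2 fold change was -0.69, and 30.2% of those genes were lower than G6PC3. PPARGC1A, at 6288 nt, lay in a bin with a median of 0.70 and an upper quartile of 1.20, and 93.3% of its genes were lower than PPARGC1A. SLC37A4, with 50.2% of its bin lower, stood at the middle of genes of its length. FOXO1 had 35.6% of its bin lower, PCK2 23.4% and PC 18.8%.

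**Figure D2:**
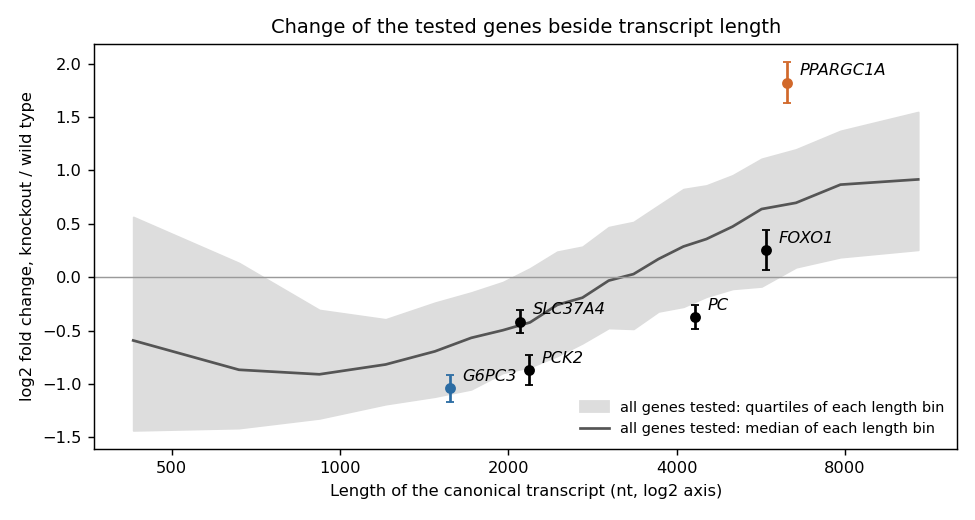
Log2 fold change (TXNDC9-KO over WT) of the 6 tested genes against canonical transcript length in nt on a log2 axis, with bars for the SE, over the median (line) and quartiles (grey) of 20 bins of all genes by length. Blue marks the call lower, orange the call higher and black no call. G6PC3 lies inside the quartiles of its bin, PPARGC1A lies above the upper quartile of 1.20, and PCK2 and PC lie below their lower quartiles of -0.84 and -0.18.

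A loess correction of each library for length and GC content ended both calls. G6PC3 was then at -0.14 (SE 0.0980, limma adjusted p = 0.265). PPARGC1A was at 0.95 (SE 0.160, limma adjusted p = 0.00721), which passed the p threshold and missed the fold threshold. PCK2 was at -0.27 (limma adjusted p = 0.160) and PC at -0.14, FOXO1 turned to -0.36 and SLC37A4 to 0.074, and none of these passed. Rescaling to TPM moved the median of all genes by 0.67 to 0.59, so the values of PC (0.30), SLC37A4 (0.26), PCK2 (-0.19) and G6PC3 (-0.36) as TPM all lay below that median. FOXO1 (0.91) and PPARGC1A (2.50) lay above it. Of all calls, 48.3% were higher as deposited, 35.8% with centred libraries and 90.7% as TPM.

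**Figure D3:**
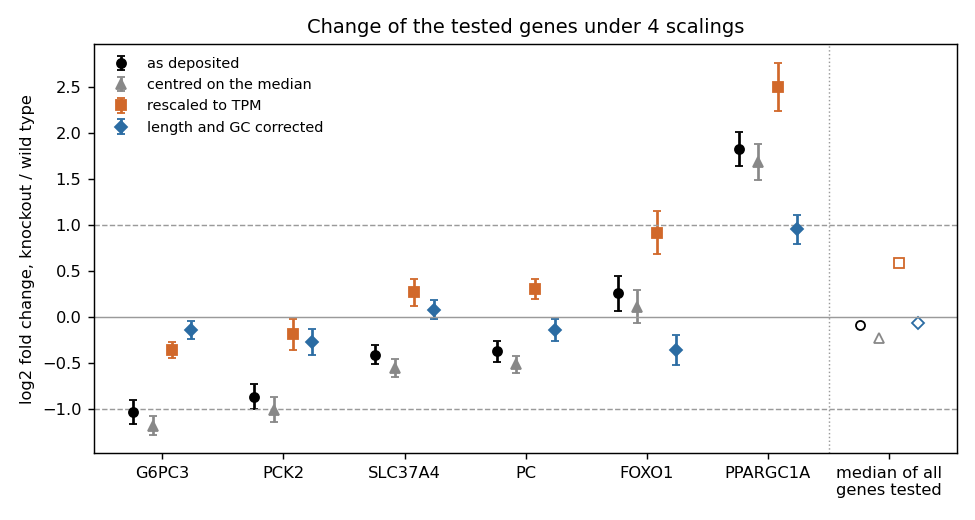
Log2 fold change (TXNDC9-KO over WT) with its SE for the 6 tested genes under 4 scalings, with the median of all genes tested at the right and dashed lines at the fold threshold of 2. PC and SLC37A4 change sign between the deposited scale and TPM, SLC37A4 and FOXO1 change sign after the length and GC correction, and PPARGC1A is above 0 and G6PC3 below 0 on each scale.

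Several steps of glucose metabolism are carried out by a liver form or by another form of the same protein. Of the 7 liver forms compared, 5 were near 0 or, as G6PC and SLC2A2, listed at 0 in every library. The other forms PKM, GYS1, PFKM and PYGB were chosen after their values were seen. Liver pyruvate kinase (PKLR) did not exceed 0.0204 FPKM, against between 874 and 1498 for PKM, and liver glycogen synthase (GYS2) did not exceed 0.0179 against between 47.8 and 58.0 for GYS1. SLC2A1 (GLUT1), the transporter of most cultured cells, was at 81.6 and 57.3 FPKM in WT and 65.4 and 65.6 in TXNDC9-KO, and the groups overlapped. The exceptions were PFKL, the liver phosphofructokinase, at 55.0 and 61.8 in WT and 44.5 and 42.8 in TXNDC9-KO, and PYGL, the liver glycogen phosphorylase, at 56.3 and 63.4 in WT and 47.3 and 48.6 in TXNDC9-KO.

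**Figure D4:**
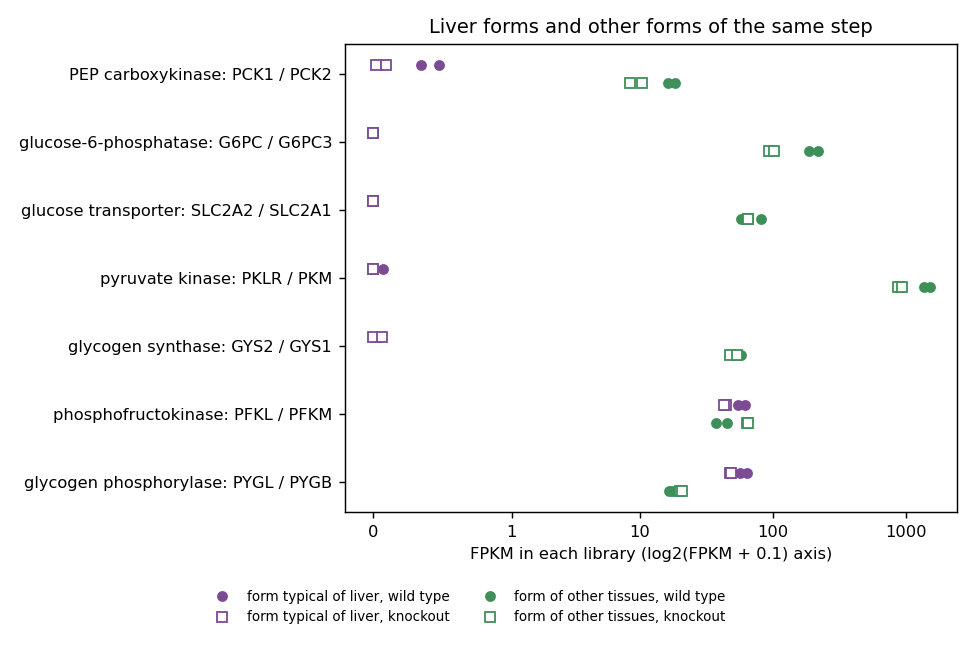
FPKM in each library, on a log2(FPKM + 0.1) axis, of the form typical of liver (purple) and of a form found in other tissues (green) for 7 steps, with filled circles for WT and open squares for TXNDC9-KO. In 5 of the 7 steps the liver form is below 0.5 FPKM and the other form above 8 FPKM, and PFKL and PYGL are the liver forms that are measured.

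Around these genes, 9 lists of the wider pathway held 179 genes, of which 137 were tested, 15 were called lower, 29 higher and 93 not called, beside the 15.3% called lower and 14.2% called higher of all genes tested. Of the 12 enzymes of the reversible steps shared with glycolysis, 10 were tested and 4 were called lower, ENO3, TPI1, GAPDH and ALDOA. GAPDH, the glyceraldehyde-3-phosphate dehydrogenase, was at 8089 and 9019 FPKM in WT and 3526 and 3919 in TXNDC9-KO, a log2 difference of -1.20. TPI1, triose phosphate isomerase, was at 1417 and 1615 in WT and 635 and 663 in TXNDC9-KO, a log2 difference of -1.22. Each of the 4 calls was lost as TPM and after the length and GC correction. The list's median was -0.57 against -0.09 over all genes tested, 0.11 against 0.59 as TPM and -0.36 against -0.06 after the correction, and the median transcript of its genes was 1710.5 nt against 2866.5 nt over all genes tested.

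Of 28 genes for the entry of lactate, amino acids and glycerol, 22 were tested, 3 were called lower and 2 higher, shares that do not exceed those over all genes. SLC38A2, a carrier of alanine and other small neutral amino acids, was at 97.1 and 85.4 FPKM in WT and 474 and 467 in TXNDC9-KO. Its log2 rise of 2.37 (SE 0.124, limma adjusted p = 0.000486) was also called as TPM (3.05) and after the correction (1.57). GPD2, the mitochondrial glycerol-3-phosphate dehydrogenase, rose by 1.71 and was not called after the correction, at 0.85. The genes called lower were the mitochondrial carriers SLC25A10 (-1.21) and SLC25A11 (-1.13) and the malate dehydrogenase MDH2 (-1.14), and these 3 calls were lost as TPM and after the correction. In the 21 opposing enzymes, of which 16 were tested, PFKFB2, which makes and degrades fructose-2,6-bisphosphate, was the 1 call, higher by 2.20 and by 1.35 after the correction. PDHA1, of the pyruvate dehydrogenase complex, was at -0.81 and PFKFB4, another enzyme of fructose-2,6-bisphosphate, at -0.98, neither past the fold threshold. After the correction PDHA1 was at -1.06 (limma adjusted p = 0.00228) and was called lower.

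Signalling and transcription had most of the calls higher. Of 29 hormone and energy signalling genes, 28 were tested and 11 were called higher, beside 14.2% of all genes tested. The 1 called lower, beside 15.3% of all genes tested, was GNAS (-1.22), the stimulatory G protein subunit. PIK3CA, a catalytic subunit of PI3 kinase, was at 3.03 and 2.34 FPKM in WT and 9.73 and 10.6 in TXNDC9-KO. PRKAA1, a catalytic subunit of AMP-activated kinase, was at 20.5 and 19.98 in WT and 68.6 and 66.7 in TXNDC9-KO. PDPK1, which phosphorylates AKT, rose by 1.52. The list's median was 0.74 against -0.09 over all genes tested, and its median transcript was 5669 nt against 2866.5 nt. After the correction its median was 0.39 against -0.06. Under the correction 2 of its genes were called higher, PDPK1 (1.05) among them, beside 826 of all 13112 genes. PIK3CA (0.65) and PRKAA1 (0.86) were then not called. Both insulin's branch (INSR, PIK3R1) and the opposing cAMP branch (ADCY9, PRKAR1A) had genes called higher. PRKACA (0.12) and PRKACB (0.45) of the cAMP branch were not called, and the activity of neither branch was measured. All of these genes were chosen after their values were seen.

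Of 34 regulators of gluconeogenic transcription, 23 were tested and 10 were called higher, beside 14.2% of all genes tested. The 2 called lower, beside 15.3% of all genes tested, were the CREB coactivator CRTC1 (-1.23) and the acetyltransferase KAT2A (-1.36). The coactivators NCOA2, EP300 and CREBBP led the rises. EP300 was at 2.87 and 2.12 FPKM in WT and 10.9 and 12.4 in TXNDC9-KO, a log2 rise of 2.19, and NCOA2 rose by 2.35 and CREBBP by 1.55. All 3 were also called after the length and GC correction, at 1.53 for EP300, 1.39 for NCOA2 and 1.18 for CREBBP. The list as a whole then had 4 genes called higher, beside 826 of all 13112 genes, and both calls in the lower direction were lost. Its median went from 0.95 to 0.39, and that of all genes tested from -0.09 to -0.06. The liver regulators FOXA2 and NR0B2 were listed at 0, and HNF4A did not exceed 0.0628 FPKM; these 3 were chosen after their values were seen. Of 10 targets that insulin represses, 4 were tested and TRIB1, a pseudokinase, was the 1 call, at 2.20 and 2.0 FPKM in WT and 4.49 and 4.51 in TXNDC9-KO. The adaptor IRS2 (0.83) and the kinase PDK4 (0.76) did not pass. After the correction TRIB1 (1.02) was still called higher, and IRS2 (0.67) and PDK4 (0.28) were not called.

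Glycogen, transport and the fructose and galactose routes had calls in both directions, beside 15.3% called lower and 14.2% higher of all genes tested. Of 25 glycogen genes, 21 were tested, 2 were called higher, among them the phosphatase subunit PPP1R3B (1.24), and 2 lower, PHKG1, a phosphorylase kinase subunit (-1.98), and GSK3A (-1.16). PHKG1, at 19.2 and 29.3 FPKM in WT and 5.67 and 6.19 in TXNDC9-KO, was the 1 gene of the 9 lists called lower as TPM. After the length and GC correction PHKG1 (-1.42) was still called lower, and PPP1R3B (0.60) was not called. Of 15 glucose transporters, 7 were tested, SLC2A13 was called higher (1.21) and SLC2A8 lower (-1.35), and SLC2A3 was at -0.89. After the correction SLC2A13 (0.18) and SLC2A8 (-0.56) were not called, and SLC2A3 (-1.25) was called lower. Of 8 fructose and galactose genes, the galactokinase GALK1 (-1.16) and the ketohexokinase KHK (-1.08) were called lower and the sorbitol dehydrogenase SORD higher (1.06). These 3 calls were also lost after the correction.

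**Figure D5:**
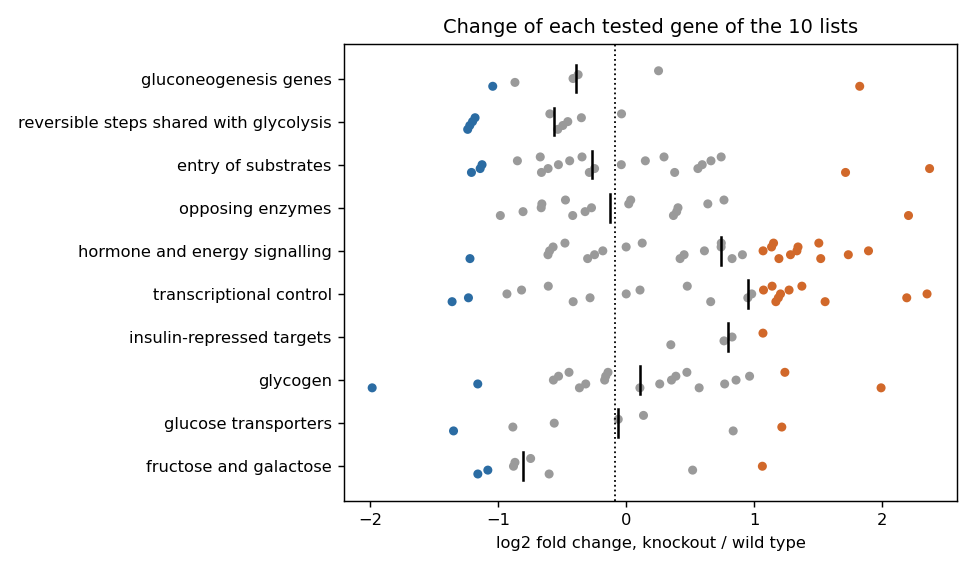
Log2 fold change (TXNDC9-KO over WT) of each tested gene in the 10 lists, blue where called lower, orange where called higher and grey where not called, with a bar at each list's median and a dotted line at the median of all genes tested, -0.09. The transcriptional control (0.95) and signalling (0.74) medians lie to the right, and those of the reversible steps (-0.57) and of fructose and galactose (-0.81) to the left; as TPM the reversible-step median is 0.11 against 0.59 over all genes tested.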

How the data were processed

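Polyadenylated RNA of 2 WT and 2 TXNDC9-KO libraries was measured. The authors mapped reads to hg38 with TopHat2 and an Ensembl annotation and deposited FPKM per gene and library from Cuffdiff (Cufflinks); neither tool versions nor the normalization between libraries nor strand use is given in the sources used here. The deposited table also held group averages and the authors' log2 fold changes, p-values and q-values, none of which was used. It had 231916 lines, 57979 of them with values; identifiers were out of register with symbols and were put back in order, after which 34949 symbols equalled those of GENCODE 44, from which positions, overlaps, transcript lengths and GC content came.

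The 13246 genes with a mean FPKM above 1 entered 1 limma fit (version 3.58.1, R 4.3.3) of log2(FPKM + 0.1), with a trended prior variance, no block and p-values adjusted by Benjamini-Hochberg; fold changes of low genes are understated on that scale. The script was tested on simulated data. FPKM gave no step of 1 read, so no counts, intervals or floors are given. TPM means FPKM rescaled to the same sum in each library. The loess correction had a span of 0.3 and covered 13112 genes. Other alternatives were pseudocounts of 1 and 0.01, no filter or a mean above 5 FPKM, libraries centred on their medians, no trend, a replicate block, an adjusted p under 0.05 and leaving out each library.

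All members were named, with the 3 tested genes of largest change in each list and the liver forms of compared steps; genes of small counts were named after their values were seen. A few genes that this rule names are not reported here. The members and lists were chosen with earlier results of these data known. Motifs were searched as exact strings on both strands of 35116 RefSeq windows. Python 3.11.15, pandas 2.3.3, numpy 2.4.6 and matplotlib 3.10.9 were used.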

Additional observations from a re-analysis of the deposited data

How the results depend on the processing

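Counts of called genes moved by over 1.5 times under several settings. Against 2021 lower and 1885 higher, a mean above 5 FPKM gave 1220 higher, TPM gave 447 lower and 4380 higher, and the length and GC correction gave 983 lower and 826 higher, or 983 and 730 with the replicate block. Leaving out 1 library gave between 0 and 2633 lower and between 0 and 2136 higher. The counts of 0 came without either TXNDC9-KO replicate, where the lone library is assumed to vary like the other group; limma at an unadjusted p under 0.05 with the fold threshold then gave 2022 lower and 2066 higher, or 2290 and 1973. Over the 9 lists, 15 lower and 29 higher became 19 higher with a pseudocount of 1, 9 lower with no filter, 19 higher above 5 FPKM, 1 lower and 60 higher as TPM, 4 and 11 after the correction, and 5 and 10 with the block too; leaving out 1 library gave between 0 and 17 lower and between 0 and 32 higher. G6PC3 was not called as TPM (-0.36), after the correction (-0.14, with the block -0.14) or in 3 of the 4 leave-one-out fits (range of all 4 -1.15 to -0.93). PPARGC1A was not called after the correction (0.95, with the block 0.95) or without a TXNDC9-KO replicate (range of all 4 fits 1.67 to 1.97), and at a mean above 5 FPKM neither it nor FOXO1 was tested. PCK2 was called with centred libraries (-1.01). Signs reversed for PC (0.30), SLC37A4 (0.26) and TXNDC9 (0.12) as TPM, and after the correction for SLC37A4 (0.074, with the block 0.074) and FOXO1 (-0.36, with the block -0.36). The cause of these changes was not tested. Across genes, the deviations of same-numbered libraries from their group means had a correlation of -0.09. With 2 libraries per group this cannot decide whether the numbers pair the libraries. The replicate block alone gave 2146 lower and 1960 higher. Pseudocounts, trend and the adjusted p of 0.05 ended no call of a member. The unknown depth limits what the members near 0 can show.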
